A study of Mus musculus with 4 samples.

Results

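Integrins and laminins are the receptors and one group of the matrix proteins through which cells hold on to their surroundings. The genes described here are the 37 integrin and laminin subunit genes of the mouse, taken by symbol as every gene named Itga, Itgb, Lama, Lamb or Lamc with a chain number or letter among the 24527 gene symbols counted. They comprise 18 integrin alpha subunits, 8 integrin beta subunits and 11 laminin chains. The rule uses their names alone, although it was set with earlier results of these data known. They were followed across 4 libraries, from cultures of B16F10, a mouse melanoma cell line, and from a tumor grown from it. The spheroid library carried more RNA of Itgb3, Lama5, Itga2b and Itga9 and less of Itgb1, Lama4, Lamc1 and Itga6 than 2D monoculture.

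An integrin is a pair of 1 alpha and 1 beta subunit that spans the membrane. The pair decides which ligand is bound: some pairs take laminin, some collagen, some the RGD motif of fibronectin, vitronectin or osteopontin, and some the counter-receptors on other cells that leukocytes use. A laminin is a trimer of 1 alpha, 1 beta and 1 gamma chain, and laminin trimers are a main component of basement membranes, the sheets beneath epithelia and around vessels, muscle fibres and nerves. In melanoma, the integrin that Itgb3 encodes with Itgav is widely known as a marker of the step from radial to vertical growth.

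The question of the study was how far melanoma cells grown as spheroids resemble a tumor. B16F10 cells came from 2D monoculture, from 2D co-culture with NIH/3T3 fibroblasts (a mouse fibroblast line) and from hanging-drop spheroids made with the same fibroblasts, and a tumor grown under the skin of 1-year-old female C57BL/6 mice was the comparison. The genotype is labelled WT in all 4, and the B16F10 cells carried a GFP reporter by which the cultured cells were sorted. The methods of the study describe the tumor cells as sorted too, whereas the label of that library describes snap frozen tumor. There is 1 library for each condition, hence no replicate check of any difference, and no test was made.

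The libraries held between 118896900 and 150028663 reads on genes. Levels are given in CPM, reads scaled to a common library total with TMM factors. A count of 0 was taken to allow up to 3 reads, a set floor of 0.0185 to 0.0262 CPM depending on the library. Log2 ratios of single genes are of CPM with nothing added, and the interval in brackets is a 95% exact binomial interval that covers counting error only. For levels of at least 10 CPM the bounds lay at most 5.30% from the value. All 8 melanocyte markers were present in every library, with a summed level of 11419.6 to 20122 CPM. The tumor library also held RNA of other cell types. All 6 skeletal muscle markers, 9 of 10 fibroblast markers and all 11 myeloid markers were over 2-fold above 2D monoculture there. Skeletal muscle markers summed to 4657 CPM in the tumor against 2.42 to 8.57 CPM in the cultures, fibroblast markers to 3204 CPM against 19.7 to 683 CPM, and myeloid markers to 2234 CPM against 11.01 to 30.0 CPM. The 683 CPM of fibroblast markers belonged to 2D co-culture, while 2D monoculture had 19.7 CPM and the spheroid 37.4 CPM. In such bulk libraries, fewer cells of a type and less RNA per cell cannot be told apart.

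Of the 37 genes, 18 reached 10 CPM in at least 1 library, namely 13 integrin subunits and 5 laminin chains. The other 19 stayed under 10 CPM everywhere, and 5 of these under 1 CPM in every library. Among the 18, the level was highest in the spheroid for 7 genes, in the tumor for 7, in 2D monoculture for 3 and in 2D co-culture for 1. It was lowest in the spheroid for 8, in the tumor for 6 and in 2D monoculture for 4, and for none of the 18 in 2D co-culture.

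**Figure D1:**
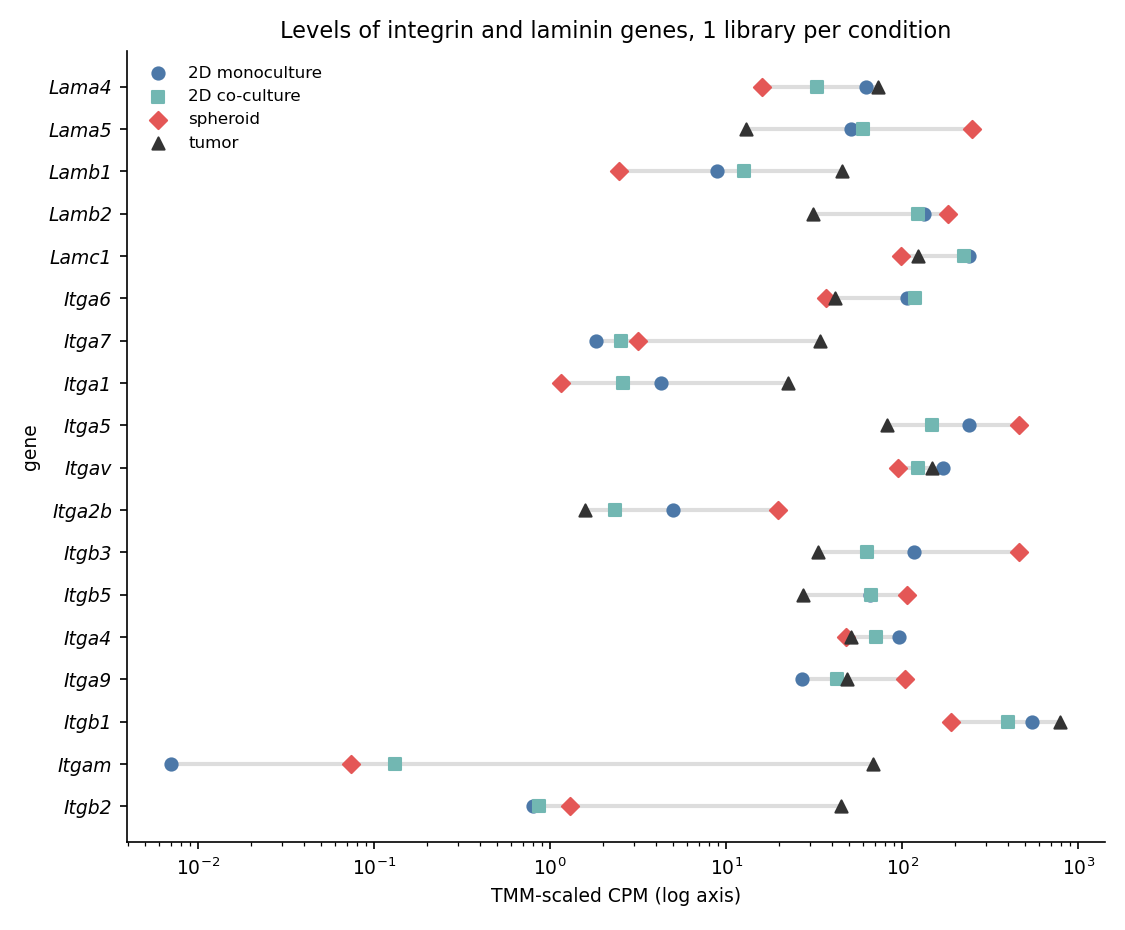
TMM-scaled CPM (log axis) of the 18 integrin and laminin genes that reached 10 CPM in a library, with 1 symbol per library and a grey bar over the range of each gene. Lama5, Itga5, Itga2b, Itgb3, Itgb5, Itga9 and Lamb2 lie furthest right in the spheroid, while Itgam and Itgb2 stand far to the right in the tumor alone.

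A gene was counted as different between 2 libraries when its ratio passed 2-fold after 1 CPM was added to each value. Between the spheroid and 2D monoculture, 4 of the 37 genes were higher in the spheroid (10.8%, beside 7.35% of all 19894 genes with a read) and 8 were lower (21.6%, beside 11.6%). Between 2D co-culture and 2D monoculture, 2 were higher in co-culture (5.41%, beside 2.7%) and 1 was lower (2.7%, beside 6.19%). In the tumor against 2D monoculture, 12 were higher (32.4%, beside 12.4%) and 10 lower (27.0%, beside 11.8%). The spheroid had 7 higher than the tumor (18.9%, beside 17.4%) and 16 lower (43.2%, beside 20.6%). Against 2D co-culture, 5 were higher in the spheroid (13.5%, beside 6.29%) and 6 lower (16.2%, beside 5.7%). Many genes in the background have few reads. Among 12728 genes whose mean reached 1 CPM, the share past 2-fold in either direction was 29.1% for spheroid and 2D monoculture, where the 37 genes had 32.4%, and 54.4% for spheroid and tumor, where they had 62.2%. For the tumor against 2D monoculture it was 33.1% beside 59.5% of the 37 genes, for 2D co-culture against 2D monoculture 13.3% beside 8.11%, and for the spheroid against 2D co-culture 18.0% beside 29.7%. The 37 genes include 10 with a mean under 1 CPM, so these shares are of unlike sets. Of the 27 others, 4 were higher and 7 lower in the spheroid than in 2D monoculture (beside 11.2% and 17.9% of the 12728 genes). Against the tumor, 7 were higher and 14 lower (beside 26.8% and 27.6%), and against 2D co-culture 5 and 6 (beside 9.54% and 8.46%). Tumor against 2D monoculture gave 11 and 8 (beside 14.8% and 18.2%), and 2D co-culture against 2D monoculture 2 and 1 (beside 3.79% and 9.51%). The median log2 ratio of the 37 genes, with 1 CPM added, was -0.01 for spheroid over 2D monoculture (0.00 for all genes with a read) and -0.39 for spheroid over tumor (-0.03). It was 0.16 for tumor over 2D monoculture (0.01), -0.02 for 2D co-culture over 2D monoculture (0.00) and -0.02 for spheroid over 2D co-culture (0.00).

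**Figure D2:**
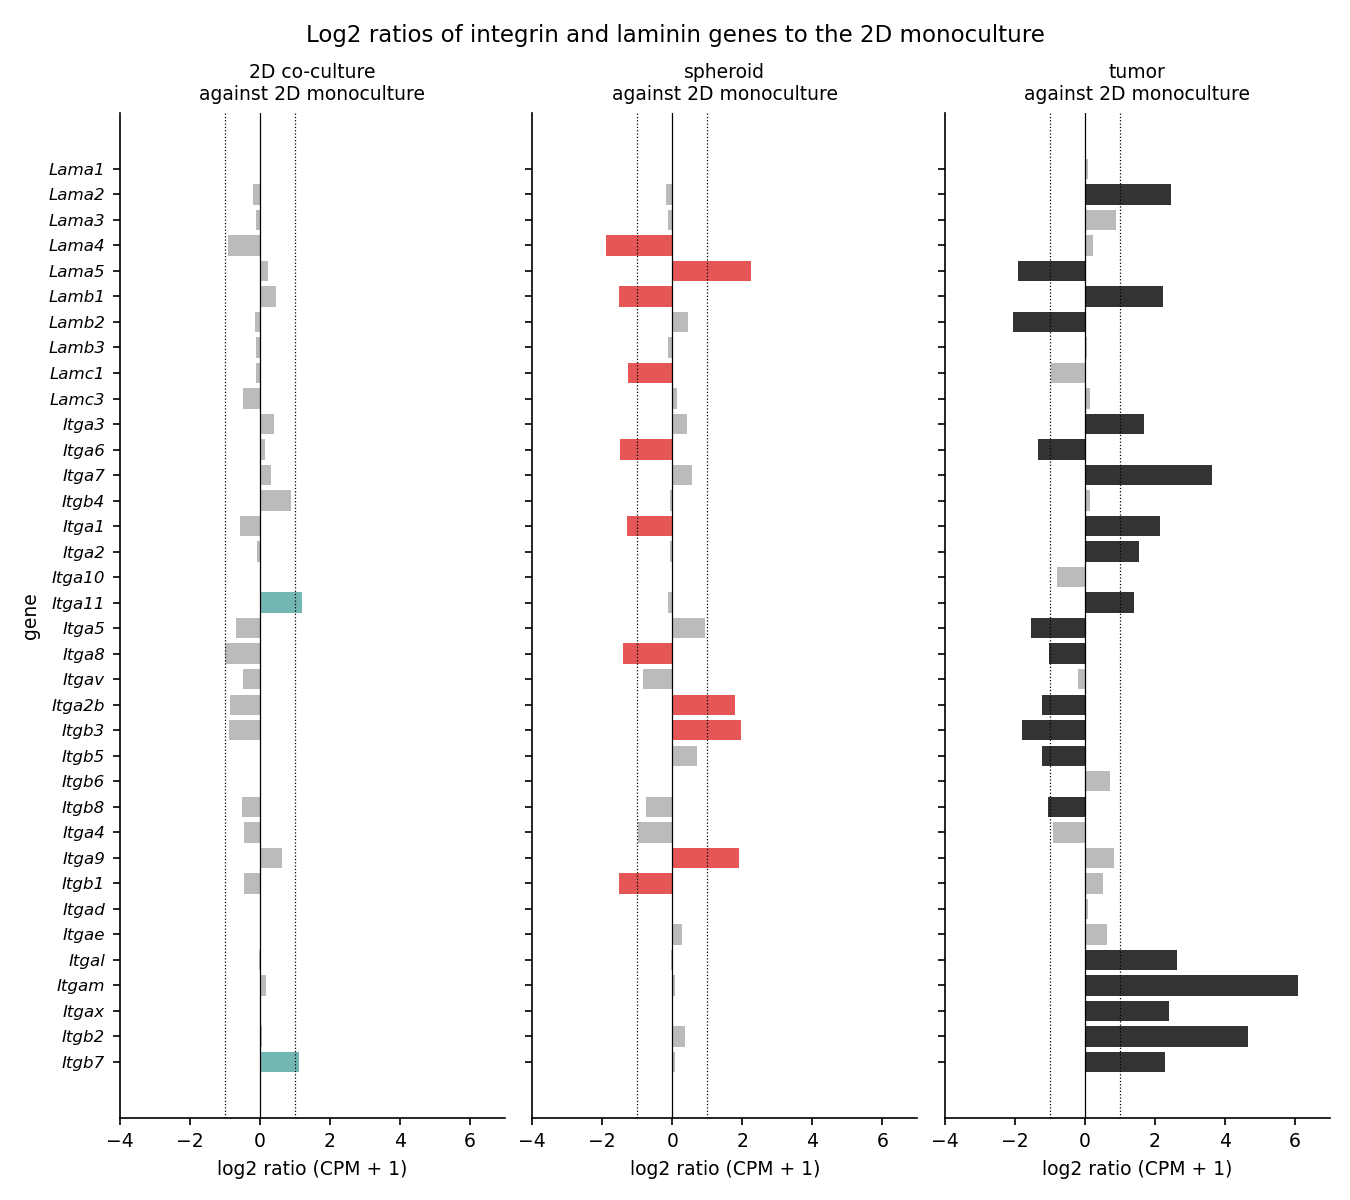
Log2 ratio of CPM with 1 CPM added for 36 of the genes (rows) in 2D co-culture, the spheroid and the tumor, each against 2D monoculture, with dotted lines at 2-fold and coloured bars for ratios past it. The spheroid panel has 4 coloured bars to the right and 7 to the left, the tumor panel 12 and 9, and the 2D co-culture panel 2 to the right.

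The sequences around the transcription start are shown for 4 genes on which the results below turn, chosen after their values were seen: Lama5, Itga5 and Itga2b, all highest in the spheroid, and Itgb1, the most abundant integrin gene per kb in the other libraries and lowest in the spheroid. Each run covers 250 bases before and 50 bases after the start, on the strand of the gene, in the RefSeq annotation of GRCm38.p6. Capitals mark the GC box GGGCGG, read on both strands.

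Lama5, chr2:180225810-180226109, minus strand: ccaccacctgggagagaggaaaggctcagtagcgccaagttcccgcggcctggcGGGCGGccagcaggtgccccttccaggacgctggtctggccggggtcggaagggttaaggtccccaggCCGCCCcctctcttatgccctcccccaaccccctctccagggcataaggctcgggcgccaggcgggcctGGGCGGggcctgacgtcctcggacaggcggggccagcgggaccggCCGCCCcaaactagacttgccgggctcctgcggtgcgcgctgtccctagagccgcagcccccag
Itga5, chr15:103366742-103367041, minus strand: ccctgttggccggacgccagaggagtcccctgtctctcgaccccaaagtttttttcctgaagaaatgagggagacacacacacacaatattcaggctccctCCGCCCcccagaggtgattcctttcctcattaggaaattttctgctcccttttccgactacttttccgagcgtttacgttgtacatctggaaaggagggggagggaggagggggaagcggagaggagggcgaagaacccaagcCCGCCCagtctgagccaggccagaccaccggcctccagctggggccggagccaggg
Itga2b, chr11:102469834-102470133, minus strand: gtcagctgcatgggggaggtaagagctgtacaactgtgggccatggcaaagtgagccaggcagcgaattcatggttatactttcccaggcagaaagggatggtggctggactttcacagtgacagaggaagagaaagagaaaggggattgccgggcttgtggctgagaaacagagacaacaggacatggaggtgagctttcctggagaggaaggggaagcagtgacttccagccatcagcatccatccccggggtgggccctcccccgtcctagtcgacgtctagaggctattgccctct
Itgb1, chr8:128685404-128685703, plus strand: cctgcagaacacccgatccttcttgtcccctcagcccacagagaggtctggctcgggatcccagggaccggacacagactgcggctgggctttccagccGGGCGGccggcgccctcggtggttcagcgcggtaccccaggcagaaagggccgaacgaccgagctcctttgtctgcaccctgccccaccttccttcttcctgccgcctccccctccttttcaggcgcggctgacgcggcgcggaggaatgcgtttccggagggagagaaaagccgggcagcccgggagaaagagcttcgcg

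Lama5 held 4 GC boxes in a window of 72.7% GC, Itga5 held 2 at 58.7% GC, Itga2b held 0 at 56.0% GC and Itgb1 held 1 at 67.3% GC. Of all 32851 promoters of the same length, 35.7% hold the GC box. Neither the AP-1 letters TGANTCA (7.81% of all promoters, both strands) nor the E-box letters CACGTG (7.15%) occur in these 4 windows. A match is a description of letters and not of a bound factor. Promoters of 23 of the 37 genes were matched.

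Among the laminin alpha chains, the abundant pair was Lama4 and Lama5, and they lay in opposite order in spheroid and tumor. Lama5, a chain of most adult basement membranes, stood at 51.2 CPM in 2D monoculture, 60.1 in 2D co-culture, 247 in the spheroid and 12.9 in the tumor. The spheroid was highest by far and the tumor lowest. Its log2 ratio was 2.27 (2.23 to 2.31) for spheroid over 2D monoculture, 2.04 (2.00 to 2.08) over 2D co-culture and 4.26 (4.20 to 4.32) over the tumor. Lama4, a chain known from vessel walls and other mesenchymal basement membranes, stood at 61.8 CPM in 2D monoculture, 32.8 in 2D co-culture, 16.01 in the spheroid and 73.0 in the tumor. It was lowest in the spheroid, with a log2 ratio of -1.95 (-2.02 to -1.88) to 2D monoculture and -2.19 (-2.26 to -2.12) to the tumor. The tumor had 1.18-fold the level of 2D monoculture, in a library where 9 of 10 endothelial markers were over 2-fold above 2D monoculture (sum 349.9 CPM, against 27.8 to 78.7 CPM in the cultures), as were 3 of 4 pericyte markers (sum 212 CPM, against 5.89 to 50.9 CPM). The part of vessel cells in the tumor value was not tested.

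The remaining alpha chains were scarce. Lama2, the chain of muscle basement membrane, had 0.154 CPM in 2D monoculture, 0.00873 in 2D co-culture, 0.0147 in the spheroid and 5.43 in the tumor, so the tumor alone was above 1 CPM, in the library in which skeletal muscle markers summed to 4657 CPM. The part of those cells in the result was not tested. Lama3, of epithelial laminin, had 0.218 CPM in 2D monoculture, 0.131 in 2D co-culture, 0.117 in the spheroid and 1.26 in the tumor. Lama1, of the embryonic trimer, had no read in the cultures and 0.0616 CPM in the tumor.

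The beta chains Lamb1 and Lamb2 also lay in opposite order. Lamb2 stood at 133 CPM in 2D monoculture, 122 in 2D co-culture, 183 in the spheroid and 31.2 in the tumor, highest in the spheroid and lowest in the tumor. Its log2 ratio was 2.55 (2.51 to 2.59) for spheroid over tumor but 0.46 (0.43 to 0.49) over 2D monoculture, which is under 2-fold. Lamb1, the beta chain that Lamb2 can replace, stood at 8.83 CPM in 2D monoculture, 12.6 in 2D co-culture, 2.45 in the spheroid and 45.6 in the tumor, the reverse order for these libraries. The spheroid lay below 2D monoculture by a log2 ratio of -1.85 (-2.03 to -1.67) and the tumor above it by 2.37 (2.28 to 2.46). The part of other cell types in the tumor value of Lamb1 was not tested. Lamb3, the beta chain of the epithelial trimer, was at most 0.166 CPM.

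The gamma chain Lamc1, shared by most laminins, stood at 239 CPM in 2D monoculture, 224 in 2D co-culture, 98.3 in the spheroid and 123 in the tumor. The spheroid was its lowest library, and the log2 ratio was -1.28 (-1.31 to -1.25) to 2D monoculture and -1.18 (-1.22 to -1.15) to 2D co-culture. Against the tumor it was -0.32 (-0.35 to -0.29). Lamc3 stayed at or under 0.708 CPM.

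Levels of different genes were compared per kb of transcript. Of the summed CPM per kb of the 5 laminin alpha chains, Lama5 made up 30.5% in 2D monoculture, 49.3% in 2D co-culture, 89.1% in the spheroid and 8.16% in the tumor. Lama4 made up 69.3%, 50.6%, 10.9% and 86.9% in the same order. The alpha chain RNA was thus almost all Lama5 in the spheroid and almost all Lama4 in the tumor, with 2D co-culture evenly split. Lamb2 accounted for 93.8%, 90.8% and 98.7% of the beta chain RNA in 2D monoculture, 2D co-culture and the spheroid, and for 41.2% in the tumor, where Lamb1 had 58.5%. Lamc1 was at least 94.0% of the gamma chain RNA in every library.

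**Figure D3:**
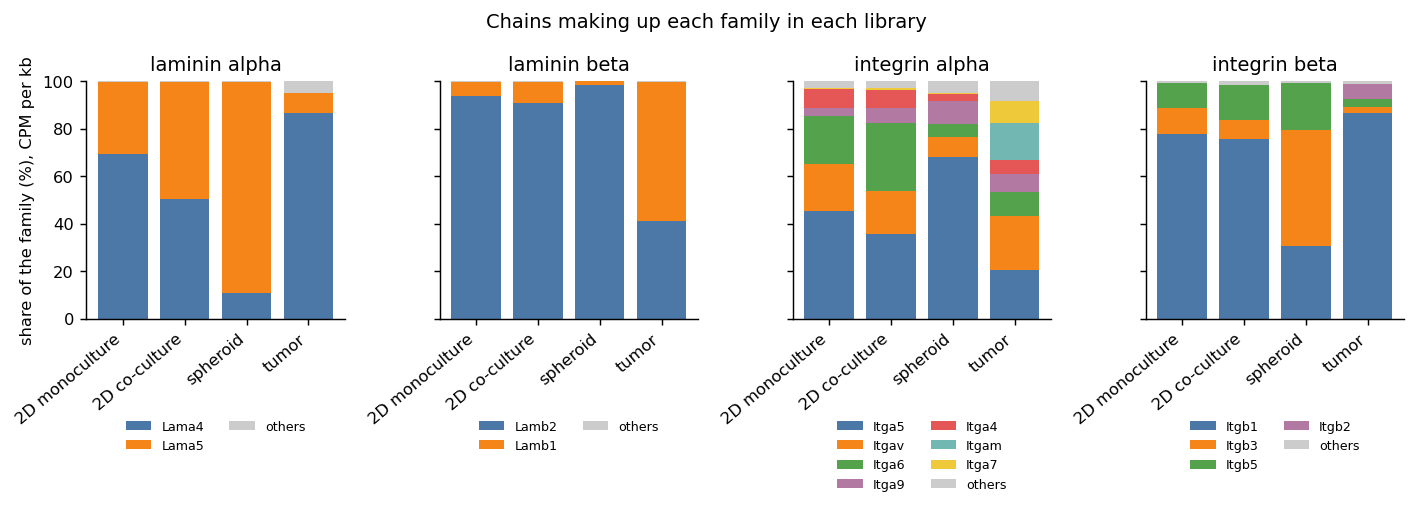
Share of the summed CPM per kb (percent) that each gene takes within the laminin alpha, laminin beta, integrin alpha and integrin beta genes, with 1 bar per library and genes that never reach 5% drawn together as others. Lama5 fills 89.1% of the laminin alpha bar of the spheroid and 8.16% of that of the tumor, and Itgb3 fills 48.7% of the integrin beta bar of the spheroid.

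The laminin receptors among the integrins were led by Itga6, which pairs with Itgb1 or Itgb4. Itga6 stood at 106 CPM in 2D monoculture, 118 in 2D co-culture, 36.6 in the spheroid and 41.6 in the tumor. The 2D cultures were high and the spheroid and tumor low, with log2 ratios to 2D monoculture of -1.53 (-1.58 to -1.48) for the spheroid and -1.35 (-1.39 to -1.31) for the tumor. Between spheroid and tumor it was -0.18 (-0.23 to -0.13), a difference beyond counting error but far under 2-fold. Itgb4, the hemidesmosome subunit, stood at 3.37 CPM in 2D monoculture, 7.06 in 2D co-culture, 3.22 in the spheroid and 3.85 in the tumor, and no comparison passed 2-fold with 1 CPM added. Under the correction for GC content and length described below, it came to 1.59 for tumor over 2D monoculture. Spheroid over tumor came to -2.02 and spheroid over 2D co-culture to -1.45. Itga3 had 1.02 CPM in 2D monoculture, 1.67 in 2D co-culture, 1.72 in the spheroid and 5.50 in the tumor. Itga7, the laminin receptor of muscle, had 1.82 CPM in 2D monoculture, 2.52 in 2D co-culture, 3.14 in the spheroid and 34.3 in the tumor. For tumor over 2D monoculture that is 4.23 (4.05 to 4.42) in log2. The tumor stood apart from all cultures for Itga3 and Itga7, in the library with the muscle markers, and the part of those cells was not tested.

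Collagen-binding subunits were low in the cultures. Itga1 stood at 4.27 CPM in 2D monoculture, 2.59 in 2D co-culture, 1.15 in the spheroid and 22.5 in the tumor, lowest in the spheroid with a log2 ratio of -1.90 (-2.16 to -1.64) to 2D monoculture, and highest in the tumor at 2.40 (2.27 to 2.52). Itga2 was at most 0.0842 CPM in the cultures and 2.14 CPM in the tumor. Itga10 lay between 3.70 and 3.78 CPM in the cultures, within counting error of each other, and at 1.71 CPM in the tumor. Of the exon bases of Itga10, 33.5% are shared with the gene model Gm42957 on the same strand. Itga11, a collagen receptor of fibroblasts, had 0.274 CPM in 2D monoculture, 1.93 in 2D co-culture, 0.176 in the spheroid and 2.41 in the tumor. It was high in the tumor and in 2D co-culture, the libraries with the most fibroblast marker RNA, with 2D co-culture at a log2 ratio of 2.82 (2.32 to 3.35) to 2D monoculture and the tumor at 3.14 (2.66 to 3.65). The spheroid, made with the same fibroblasts, did not differ from 2D monoculture beyond counting error, at -0.64 (-1.43 to 0.13). The part of fibroblast RNA in these values was not tested.

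Among the RGD-binding subunits, Itgb3, Itga2b, Itga5 and Itgb5 were all highest in the spheroid and lowest in the tumor. Itgb3, which pairs with Itgav or Itga2b, stood at 117 CPM in 2D monoculture, 62.8 in 2D co-culture, 458 in the spheroid and 33.1 in the tumor. The order was spheroid, 2D monoculture, 2D co-culture, tumor, with each step beyond counting error. The spheroid was 3.91-fold over 2D monoculture, a log2 ratio of 1.97 (1.94 to 1.99), and 13.8-fold over the tumor, at 3.79 (3.75 to 3.83). Itga2b, the platelet partner of Itgb3, followed the same order, with 4.98 CPM in 2D monoculture, 2.32 in 2D co-culture, 19.7 in the spheroid and 1.58 in the tumor. Its log2 ratio was 1.98 (1.86 to 2.11) for spheroid over 2D monoculture. Of the 4 platelet markers, Pf4 had 92.0 CPM in the tumor and at most 0.114 CPM in the cultures, and Ppbp 12.8 and at most 0.306 CPM. Gp9 (0.166 CPM in the tumor, 0.235 to 0.515 CPM in the cultures) and Gp1ba (0.259 CPM, 0.147 to 0.547 CPM) were not higher in the tumor by over 2-fold. The part of platelets in the Itga2b values was not tested.

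Itga5, the alpha subunit of the classical fibronectin receptor, stood at 239 CPM in 2D monoculture, 148 in 2D co-culture, 461 in the spheroid and 81.7 in the tumor. The spheroid was highest, with a log2 ratio of 0.95 (0.93 to 0.97) to 2D monoculture, just under 2-fold, and of 2.50 (2.47 to 2.52) to the tumor. Itgb5 had the same extremes, with 65.2 CPM in 2D monoculture, 66.3 in 2D co-culture, 106 in the spheroid and 27.2 in the tumor. The 2D cultures did not differ in Itgb5 beyond counting error, and the log2 ratio of spheroid over tumor was 1.97 (1.92 to 2.02). Itgav, the alpha subunit shared by the vitronectin receptors, varied least among the abundant integrins and had 169 CPM in 2D monoculture, 122 in 2D co-culture, 94.7 in the spheroid and 147 in the tumor. No ratio of Itgav reached 2-fold, and the spheroid was its lowest library. Itga8 fell from 2.25 CPM in 2D monoculture to 0.235 CPM in the spheroid, while Itgb8 went from 1.46 CPM in 2D monoculture to 0.185 CPM in the tumor. Itgb6 was at most 0.653 CPM.

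Itga4 and Itga9 are related subunits that bind VCAM1 and osteopontin and that went opposite ways from 2D monoculture. Under the correction for GC content and length described below, Itga4 was no longer lower in the spheroid (0.03 in log2 with 1 CPM added) or in 2D co-culture (0.26). Itga9 stood at 26.8 CPM in 2D monoculture, 42.4 in 2D co-culture, 103 in the spheroid and 48.7 in the tumor, with 2D monoculture lowest and the spheroid highest, at a log2 ratio of 1.95 (1.90 to 2.00). Itga4 stood at 95.9 CPM in 2D monoculture, 70.6 in 2D co-culture, 48.0 in the spheroid and 51.1 in the tumor, with 2D monoculture highest. Its log2 ratio of spheroid over 2D monoculture was -1.0006 (-1.04 to -0.96) and did not pass 2-fold once 1 CPM was added. Between spheroid and tumor, Itga4 had -0.09 (-0.14 to -0.05). Reads of Itga4 may include some of Cerkl, which lies on the opposite strand and overlaps 8.04% of its exon bases, since the library kit is not described as keeping strand.

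Itgb1, the partner of most alpha subunits, stood at 546 CPM in 2D monoculture, 397 in 2D co-culture, 189.6 in the spheroid and 789.6 in the tumor. The spheroid was lowest and the tumor highest. Per kb of transcript it was the most abundant of the 37 genes in 2D monoculture, 2D co-culture and the tumor, and stood below Itga5 and Itgb3 in the spheroid. The log2 ratio of spheroid over 2D monoculture was -1.53 (-1.55 to -1.51), over 2D co-culture -1.07 (-1.09 to -1.04) and over the tumor -2.06 (-2.08 to -2.04). Tumor over 2D monoculture was 0.53 (0.52 to 0.55), under 2-fold. Of the summed CPM per kb of the 8 beta subunits, Itgb1 made up 77.7% in 2D monoculture, 75.8% in 2D co-culture, 30.6% in the spheroid and 86.7% in the tumor. Itgb3 made up 10.97%, 7.91%, 48.7% and 2.39%. Itgb3 RNA thus exceeded Itgb1 RNA per kb in the spheroid and in no other library. Among the 18 alpha subunits, Itga5 made up 68.0% in the spheroid against 45.2% in 2D monoculture, 35.6% in 2D co-culture and 20.3% in the tumor. The alpha total of the tumor also held 15.9% Itgam and 9.29% Itga7. The part of other cell types in the tumor levels and shares was not tested.

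Ratios of 2 genes within a library do not depend on how libraries are scaled. The pairs below were chosen after the values had been seen. Per kb, the ratio of Itgb3 to Itgb1 was 0.141 in 2D monoculture, 0.104 in 2D co-culture, 1.59 in the spheroid and 0.0276 in the tumor. Lama5 to Lama4 gave 0.440, 0.974, 8.20 and 0.0939, and Lamb2 to Lamb1 gave 15.5, 9.96, 76.6 and 0.704 in the same order. In all of these the spheroid was highest and the tumor lowest. Under a correction for GC content and length described below, the log2 change between spheroid and tumor went from 5.85 to 4.55 for Itgb3 to Itgb1. It went from 6.45 to 3.92 for Lama5 to Lama4 and from 6.77 to 5.08 for Lamb2 to Lamb1. In this paragraph, changes before the correction are of reads with nothing added, and those after it are of ratios with 1 CPM added. Itga9 to Itga4 gave 0.389, 0.834, 3.00 and 1.33, with the spheroid again highest but 2D monoculture lowest. Under the correction, the log2 change of Itga9 to Itga4 between spheroid and tumor went from 1.18 to -0.24, so that the tumor was highest. Itga5 to Itgav gave 2.27, 1.95, 7.83 and 0.891, with the spheroid highest and the tumor lowest. Under the same correction its log2 change went from 1.79 to 0.27 for spheroid against 2D monoculture and from 3.14 to 0.35 for spheroid against tumor. Itga2b to Itgb3 was between 0.0623 and 0.0806 in all 4 libraries, although both genes varied more than 10-fold. The log2 change of that ratio between 2D monoculture and spheroid was 0.02 (-0.11 to 0.14, a counting interval by normal approximation).

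**Figure D4:**
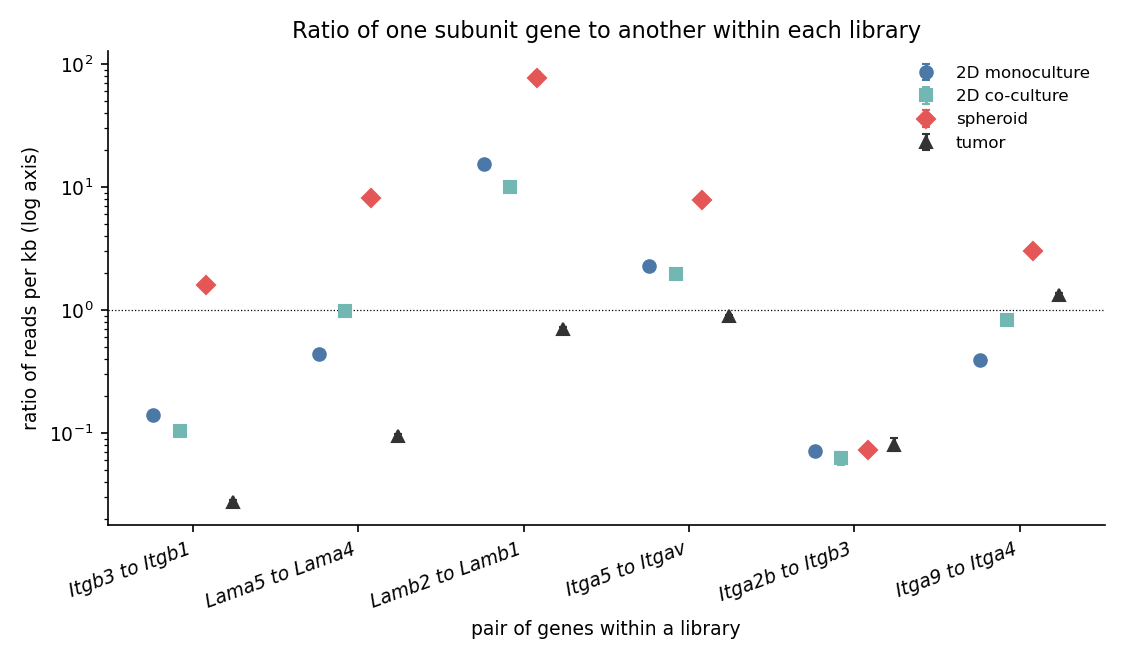
Ratio of reads per kb of 1 gene to another within each library (log axis) for 6 pairs, with 1 symbol per library and 95% counting intervals that are mostly smaller than the symbols. The spheroid symbol is highest for 5 of the pairs, and for Itga2b to Itgb3 the 4 symbols lie together between 0.0623 and 0.0806.

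Of the 7 leukocyte integrin genes, 5 were over 2-fold higher in the tumor than in 2D monoculture (71.4%, beside 12.4% of all genes) and 0 lower, and Itgae and Itgad did not pass. Itgam, which with Itgb2 forms the complement receptor of macrophages and neutrophils, had 0.00702 CPM in 2D monoculture, 0.131 in 2D co-culture, 0.0734 in the spheroid and 68.2 in the tumor. The 2D monoculture value is 1 read, and the log2 ratio of tumor over 2D monoculture was 13.25 (10.77 to 18.55). Itgb2 had 0.793 CPM in 2D monoculture, 0.865 in 2D co-culture, 1.29 in the spheroid and 44.8 in the tumor, with a log2 ratio of 5.82 (5.55 to 6.10) for tumor over 2D monoculture. Itgal, the lymphocyte partner of Itgb2, had 5.58 CPM in the tumor and at most 0.0562 CPM in the cultures, and Itgax, a partner of dendritic cells, had 4.38 CPM and at most 0.0262 CPM. Itgb7 had 0.267 CPM in 2D monoculture, 1.75 in 2D co-culture, 0.345 in the spheroid and 5.16 in the tumor, and 2D co-culture was above 2D monoculture with a log2 ratio of 2.71 (2.21 to 3.25). Itgae, its partner, had 0.512 CPM in 2D monoculture, 0.559 in 2D co-culture, 0.830 in the spheroid and 1.35 in the tumor, and Itgad was at most 0.0678 CPM.

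All 11 myeloid markers were over 2-fold higher in the tumor than in 2D monoculture, with Cd14 and Fcgr1 at 0 in 2D monoculture, while the 8 lymphoid markers summed to 6.48 CPM in the tumor and to at most 0.213 CPM in the cultures. The part of leukocytes in the tumor values was not tested. As a share of the tumor level, Itgam had 0.192% in 2D co-culture and 0.108% in the spheroid, and the skeletal muscle markers had a median of 0.189% and 0.127% there. Itgb2 had 2.88% and Itgb7 6.69% of their tumor level in the spheroid, and Itgae 61.5%. Most exon bases of Itgam (68.7%) are shared with the gene model Gm49368 of GENCODE, for which no count was used here.

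Genes that work with these subunits were taken from lists. Of 14 adaptor genes that link integrins to actin, 2 were over 2-fold higher in the spheroid than in 2D monoculture (14.3%, beside 7.35% of all genes) and 6 were lower (42.9%, beside 11.6%). Both calls of higher genes were lost under the correction for GC content and length given below. Tln1, the talin that switches integrins on, stood at 749.9 CPM in 2D monoculture, 319 in 2D co-culture, 159 in the spheroid and 197 in the tumor, and 2D monoculture was far above the rest. Zyx, zyxin, stood at 267 CPM in 2D monoculture, 246 in 2D co-culture, 439 in the spheroid and 57.9 in the tumor, and Parvb, a parvin, at 190.4 CPM in 2D monoculture, 249 in 2D co-culture, 363 in the spheroid and 75.1 in the tumor. Both were highest in the spheroid and lowest in the tumor, with log2 ratios under 2-fold to 2D monoculture, at 0.72 (0.70 to 0.74) and 0.93 (0.91 to 0.95). The others lower in the spheroid were Tln2, Fermt2, Lims1, Vcl and Ptk2, with log2 ratios between -3.80 and -1.06, and Ilk, the integrin-linked kinase, was higher at 1.01 (0.98 to 1.03). Fermt3, the kindlin of blood cells, was the second gene that was higher. Between spheroid and tumor, 4 adaptor genes were higher in the spheroid and 4 lower (28.6% each, beside 17.4% and 20.6% of all genes). In the tumor against 2D monoculture, 1 was higher (7.14%, beside 12.4%) and 4 lower (28.6%, beside 11.8%). In 2D co-culture, 2 were lower than in 2D monoculture (14.3%, beside 6.19%) and 2 higher than in the spheroid (14.3%, beside 5.7%).

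Of 8 genes of laminin partners and other laminin receptors, 4 were higher in the spheroid than in 2D monoculture (beside 7.35% of all genes) and 0 lower. Against the tumor, 4 were higher (beside 17.4%) and 2 lower (beside 20.6%). Under the correction for GC content and length these became 1 and 0, and 1 and 4. In the tumor against 2D monoculture, 4 were higher (beside 12.4%) and 3 lower (beside 11.8%), and under the correction 4 and 0. In 2D co-culture against 2D monoculture, 2 were higher (beside 2.7%) and 0 lower (beside 6.19%). In the spheroid against 2D co-culture, 2 were higher (beside 6.29%) and 1 lower (beside 5.7%), and under the correction 1 and 1. Col4a1, of the collagen that forms the second network of basement membranes, stood at 43.7 CPM in 2D monoculture, 89.3 in 2D co-culture, 220.4 in the spheroid and 291 in the tumor, and Col4a2 at 44.3 CPM in 2D monoculture, 70.4 in 2D co-culture, 105 in the spheroid and 160.4 in the tumor. The tumor was highest and 2D monoculture lowest for Col4a1 and Col4a2, unlike Lama5. Agrn, agrin, stood at 172 CPM in 2D monoculture, 224 in 2D co-culture, 378 in the spheroid and 62.3 in the tumor, and Bcam, a receptor of Lama5, at 10.6 CPM in 2D monoculture, 10.5 in 2D co-culture, 26.8 in the spheroid and 8.93 in the tumor. For Agrn and Bcam the spheroid was highest and the tumor lowest, as for Lama5. Dag1, the dystroglycan receptor, had 313 CPM in 2D monoculture, 457 in 2D co-culture, 562 in the spheroid and 149 in the tumor, with the same extremes. Hspg2, perlecan, had 249 CPM in 2D monoculture, 271 in 2D co-culture, 276 in the spheroid and 78.4 in the tumor, with the tumor lowest and the cultures close together.

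Of 11 other integrin ligands, 0 were higher in the spheroid than in 2D monoculture and 2 were lower (18.2%, beside 11.6% of all genes). Against 2D monoculture, 5 were higher in 2D co-culture (45.5%, beside 2.7%) and 9 in the tumor (81.8%, beside 12.4%), with 0 lower in either. The spheroid had 0 higher (beside 17.4%) and 9 lower (81.8%, beside 20.6%) than the tumor. Against 2D co-culture it had 0 higher (beside 6.29%) and 5 lower (45.5%, beside 5.7%). Fn1, the fibronectin that Itga5 binds, stood at 184 CPM in 2D monoculture, 465 in 2D co-culture, 80.001 in the spheroid and 388 in the tumor, so the spheroid had the most Itga5 and the least Fn1 RNA. Spp1, osteopontin, a ligand of Itgb3 and Itga9, stood at 6.42 CPM in 2D monoculture, 28.0 in 2D co-culture, 3.55 in the spheroid and 179.7 in the tumor, and Thbs1 at 12.1 CPM in 2D monoculture, 33.9 in 2D co-culture, 1.76 in the spheroid and 136 in the tumor. The spheroid was lowest for these ligands too. Fibroblast markers were highest in the tumor (3204 CPM) and 2D co-culture (683 CPM), and their part in the ligand values was not tested.

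GC content moved with these ratios. Over the 18 genes that reached 10 CPM, the log2 ratio of spheroid to 2D monoculture (1 CPM added) had a Spearman correlation of 0.62 with the GC content of the transcript, and over 12466 genes it was 0.49. These points are genes of the same 2 libraries and not independent replicates. When the median of genes of like GC content and length was subtracted, the ratio became 1.75 for Lama5 (from 2.25), 2.24 for Itgb3 (from 1.9597), 2.71 for Itga9 (from 1.91) and 1.15 for Itga2b (from 1.79). Those 4 genes stayed past 2-fold. Lama4 (-1.14), Lamb1 (-1.54) and Lamc1 (-1.09) stayed lower by over 2-fold too, whereas Itgb1 (-0.98) and Itga6 (-0.98) came to lie just inside 2-fold. Itga1 came to 0.00 (from -1.30, and -1.90 with nothing added). Lama2, with 22 reads in 2D monoculture and 2 in the spheroid, came to 1.32 (from -0.19). With nothing added, Lama2 was lower in the spheroid, at -3.39 (-6.53 to -1.37). At such low levels the added 1 CPM shrinks a ratio while the correction is subtracted in full, so the corrected values of Itga1 and Lama2 show neither a lost difference nor a rise. Itga8 has a mean under 1 CPM and was not corrected. For Itga5 the ratio went from 0.95 to 0.48, for Itgb5 from 0.70 to 0.06, for Lamb2 from 0.46 to -0.04, for Itgav from -0.83 to 0.21 and for Itga4 from -0.99 to 0.03. In the tumor against 2D monoculture, Lama5 (-0.47), Itga6 (-0.84), Itgb3 (-0.89), Itga5 (-0.47), Itgb5 (-0.26), Itga2b (-0.24) and Lamb2 (-0.62) were no longer past 2-fold. Itga9 (1.80) and Itgb4 (1.59) came to be over 2-fold higher there, and Itga4 (-1.13) over 2-fold lower. In 2D co-culture against 2D monoculture the corrected ratios were -0.77 for Itga5 and -0.92 for Itga2b, below those of the tumor. Between spheroid and tumor, Lama5 (2.34), Itgb3 (3.35), Itga2b (1.40) and Itga9 (1.07) remained over 2-fold higher in the spheroid, Itga4 came to be so (1.30), and Itga5 (0.97), Lamb2 (0.69) and Itgb5 (0.33) no longer did. Of the genes that work with integrins and laminins, the correction left 0 adaptor genes higher and 4 lower in the spheroid against 2D monoculture, and 1 laminin partner higher and 0 lower. Against the tumor it gave 2 adaptors higher and 6 lower, and 1 laminin partner higher and 4 lower, with the median log2 ratio of the laminin partners going from 0.54 to -0.90. Of all 19894 genes with a read, 1194 were higher and 1444 lower after it in the spheroid against 2D monoculture. Against the tumor these counts were 2199 and 3307. In the tumor against 2D monoculture the correction gave 2 adaptors higher and 1 lower, and 4 laminin partners higher and 0 lower. All genes had 2566 higher and 756 lower there. The ligand counts in these comparisons were the same with and without the correction. The log2 change of the Itga2b to Itgb3 ratio between 2D monoculture and spheroid was 0.02 with nothing added and -1.08 under this correction. The corrected value is of ratios with 1 CPM added, which by itself took Itga2b from 1.98 to 1.79 and Itgb3 from 1.97 to 1.96. Part of the shift is therefore due to the added CPM and not to the correction.

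**Figure D5:**
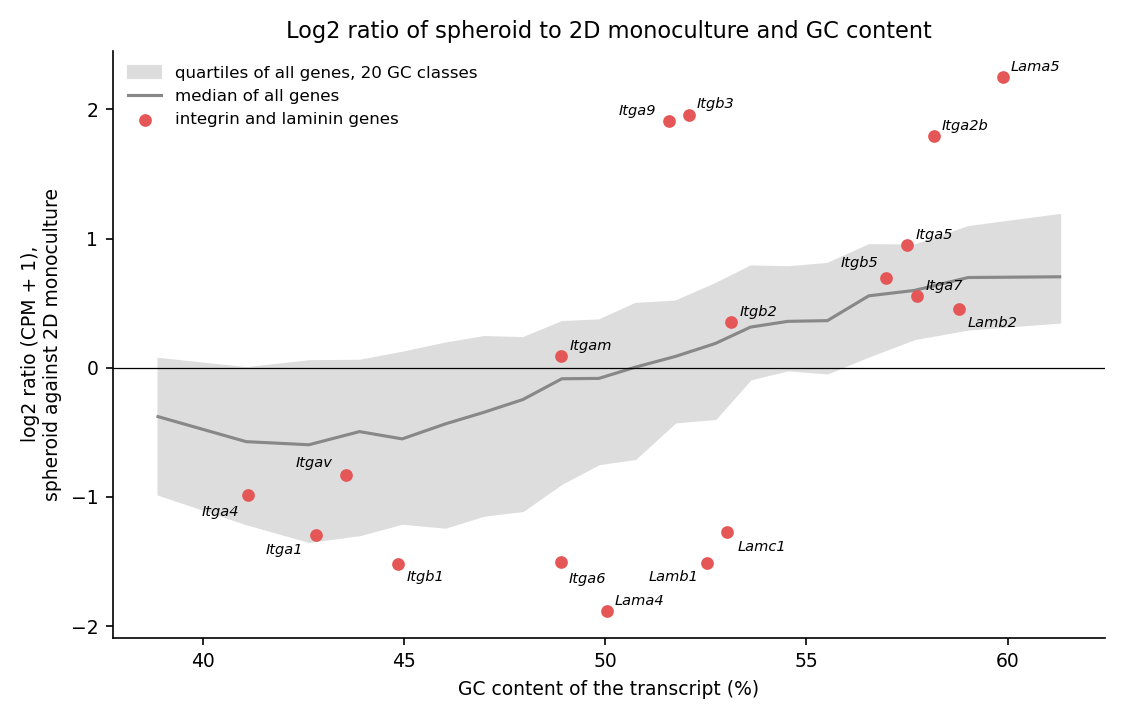
Log2 ratio of spheroid to 2D monoculture (1 CPM added) against GC content of the transcript (percent), with the 18 integrin and laminin genes that reached 10 CPM as points and the median and quartiles of all genes in 20 GC classes in grey. The grey median climbs with GC content, and Itgb3, Itga9, Lama5 and Itga2b lie above the grey band while Itgb1, Itga6, Lama4, Lamb1 and Lamc1 lie below it.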

How the data were processed

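Poly(A)-selected RNA of 4 libraries was sequenced as paired reads with a kit that is not described as keeping strand. The authors deposited whole-number counts of reads per gene, without normalization. Their processing notes name Trimmomatic, STAR and featureCounts, without a version or a role, and the mm10 build. Whether RNA of several preparations was pooled in a library is not given in the sources used here.

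Counts were scaled with TMM factors of edgeR 4.0.16 in R 4.3.3, which were 0.984 for 2D monoculture, 0.963 for 2D co-culture, 0.908 for the spheroid and 1.16 for the tumor. Tables were computed in Python 3.11.15 (scipy 1.17.1, pandas 2.3.3, numpy 2.4.6). With 1 library per condition no test was made, and a gene was counted as different when the ratio passed 2-fold with 1 CPM added. Intervals are exact binomial (Clopper-Pearson) intervals at 95%, and cover counting error only. Transcript length and GC content are those of the longest transcript paired with a RefSeq mRNA in GENCODE M21, whose build is that of mm10, and all 37 genes matched. The GC and length correction sorts genes into 10 GC classes and 10 length classes and subtracts the median log2 ratio of each combination.

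The genes and lists were chosen with earlier results of these data known. Genes given in full reach 10 CPM in a library, and the others are given by level or count. The values of 1 gene are not reported here, although it is in the counts. Of the adaptor, ligand and laminin partner genes, the 3 of highest mean CPM in each list are named, and those past 2-fold between spheroid and 2D monoculture with a mean of at least 10 CPM. Fermt3 is outside this rule and was named after its values were seen. Alternatives were DESeq2 1.42.0 size factors, total counts, upper quartiles, 0.1 CPM added, a mean of at least 1 CPM, the correction above, a GFOLD-type interval at 98% and, chosen after seeing the data, TMM factors without the tumor. The scaling step was checked on simulated data.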

Additional observations from a re-analysis of the deposited data

How the results depend on the processing

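No paired analysis was possible because there is only 1 library for a condition. With 0.1 CPM added in place of 1 CPM, the count of genes past 2-fold in 2D co-culture against 2D monoculture went from 2 to 4 higher and from 1 to 5 lower, the spheroid against 2D co-culture had 10 lower in place of 6, and the median log2 ratio of spheroid over tumor went from -0.39 to -1.10. That median was -1.06 when means under 1 CPM were left out. The GFOLD-type interval gave 4 lower in 2D co-culture against 2D monoculture. The GC and length correction gave 5 lower in place of 8 in the spheroid against 2D monoculture and 4 in place of 10 in the tumor against 2D monoculture. Over all 19894 genes with a read, the lower counts in these comparisons fell as well, from 2308 to 1444 and from 2346 to 756. The correction turned Itga4 in spheroid over 2D monoculture from -1.0006 to 0.019. Of 90 log2 ratios of single genes, 51 were past 2-fold. Under DESeq2 size factors, total counts and upper quartiles 50, 50 and 48 of these stayed so, and 34 under the GC and length correction, where 79 of the 90 kept their sign and the largest shift was 1.82. Total counts shifted every log2 ratio with nothing added by -0.36 for spheroid over tumor and by 0.24 for tumor over 2D monoculture, and upper quartiles by 0.25 for the latter. TMM factors without the tumor left every count between cultures as it was. Levels far under 1 CPM rest on few reads, such as the 22 reads of Lama2 in 2D monoculture. The 0.830 CPM of Itgae in the spheroid is 113 reads.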
